A study of Mus musculus with 28 samples.

Results

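Interferon-stimulated genes were followed in regulatory T (Treg) cells sorted from spleens and from forebrain tumors of mice implanted with the murine GBM line CT2A. The set held 50 genes named for induction by type I or type II interferon, and its members were found by symbol. All 50 symbols were found among the 53801 features of the expression table, and the 47 with a mean above 10 TPM, a length-corrected share of the library, in at least 1 group are described. The remaining members, Ifit2, Gbp5 and Ifi44, had group means below 10 TPM in all 4 groups, with ranges of 2.03 to 5.17, 7.58 to 9.55 and 0.0571 to 3.12 TPM.

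The 4 groups crossed tissue with treatment. C57BL/6 mice with established orthotopic tumors received 4 doses of control IgG2a or of αPD1 + αGITR, which are antibodies against the inhibitory receptor PD1 and the costimulatory receptor GITR, and tissue was taken after the last dose. Treg cells were sorted as TCR+CD4+CD25hi CD127lo cells, with TCR+CD8+ cells sent to a dump channel, and bulk Smart-Seq2 libraries were made from the sorted cells. The libraries used numbered 7 from the spleens of IgG2a mice, 8 from the spleens of treated mice, 5 from the GBM tumors of IgG2a mice and 7 from the GBM tumors of treated mice. The labels do not tie libraries to mice, and the splenic libraries of each treatment outnumber the mice that the study describes for it. Some may therefore share a mouse, in which case the p-values over libraries are too small, and each comparison was also run with libraries of 1 group that share the number in the title averaged (chosen after seeing the data). All mice carried tumors, so the splenic Treg cells were not from healthy animals, and the antibodies were given together, so their separate effects cannot be told apart.

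Interferons act on neighbouring cells through surface receptors. Type I interferons signal through IFNAR1 and IFNAR2 to a complex that holds STAT2 and IRF9 and binds the interferon-stimulated response element, whereas IFN-gamma signals through IFNGR1 and IFNGR2. The induced genes encode products that sense foreign nucleic acid, block viral translation and replication, restrict intracellular pathogens and adjust the signal itself, and many respond to both kinds of interferon. T cells, Treg cells among them, carry these receptors.

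The values were deposited without read counts, so the depth of each library is unknown. The 8 housekeeping genes examined (Actb, Gapdh, B2m, Ppia, Rplp0, Eef1a1, Hprt and Tbp) were above 0 in all 27 libraries, but their sum ran from 1058 to 26740 TPM (median 7293) in spleens of IgG2a mice and from 1862 to 17150 (7240) in spleens of treated mice, against 8948 to 21362 (13411) and 12495 to 24538 (18329) in the respective GBM groups. Actb made the largest part, and B2m, which interferon also induces, had means of 467 and 702 TPM in spleen and 2500 and 2041 in GBM, whereas Rplp0 had 1653 and 1341 in spleen and 1302 and 1895 in GBM. Genes above 1 TPM numbered 7702 to 17460 per library. The most abundant single feature took 15.5% to 53.7% of the TPM of a library. Foxp3 was above 10 TPM in 27 of 27 libraries. The sum of 7 T cell markers, however, ran from 247 to 2535 TPM in spleens of IgG2a mice and from 293 to 2144 in spleens of treated mice, and from 1351 to 3356 and 1767 to 3826 in the respective GBM groups. The sum of 18 macrophage and microglia markers was 127 to 724, 43 to 905, 215 to 16215 and 196 to 6400 TPM in the same order of groups. Group means above 10 TPM were found for 5, 8, 13 and 10 of the 18 genes, and the myeloid adaptor gene Tyrobp had means of 10.6, 10.4, 115 and 18.9 TPM. Apoe was above 10 TPM in 25 libraries, Ctss in 24 and Lyz2 in 14, whereas Itgam and Mrc1 were not above 10 TPM in any library and Adgre1 and P2ry12 in 1 each. The 5 GBM libraries IgG2a tumor_369_a (1095 TPM) and tumor_79_a (16215) and treated tumor_73_a (6400), tumor_73_b (912) and tumor_74_a (2343), exceeded every splenic library in this sum. CD8 T cell markers summed to at most 36.6 TPM and NK cell markers to at most 19.1 TPM. B cell markers summed to 51.1 to 973, 53.7 to 474, 48.7 to 437 and 132 to 342 TPM in the same order of groups. The highest sum was in spleen_79_b, and Ighm had means of 224, 223, 175 and 226 TPM. Markers of plasmacytoid dendritic cells summed to 13.1 to 97.4 TPM in spleen and 66.4 to 724 in GBM, but Bst2, itself a member, made most of the sum in GBM, and Siglech had means of 0.907 and 1.59 TPM in spleen and 10.3 and 4.68 in GBM. Neuron and glia markers had median sums of 7.56 and 18.8 TPM in spleen and 52.05 and 23.5 in GBM, with Mbp at means of 6.22, 11.9, 57.9 and 31.1. The part of these cells in the results was not tested. GBM IgG2a library tumor_369_a had the fewest genes above 1 TPM, and it held the highest value of its group in 17 and the lowest in 16 of the 47 members.

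The members stood at a low level in splenic Treg cells and at a higher level in GBM Treg cells. Over all 50 listed genes, which the limit of 10 TPM did not choose, 19 had a mean above 10 TPM in spleens of IgG2a mice and 23 in spleens of treated mice, against 45 and 46 in the respective GBM groups. Over all features of the table that share was 9.98% to 12.1% in the 4 groups. The median of the 50 means was 7.18 and 8.94 TPM in the splenic groups and 40.2 and 38.2 TPM in the GBM groups. Values listed at 0 were 40 of 350 and 52 of 400 in spleen, and 3 of 250 and 1 of 350 in GBM. In bulk libraries, fewer cells of a type and less RNA per cell cannot be told apart.

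**Figure D1:**
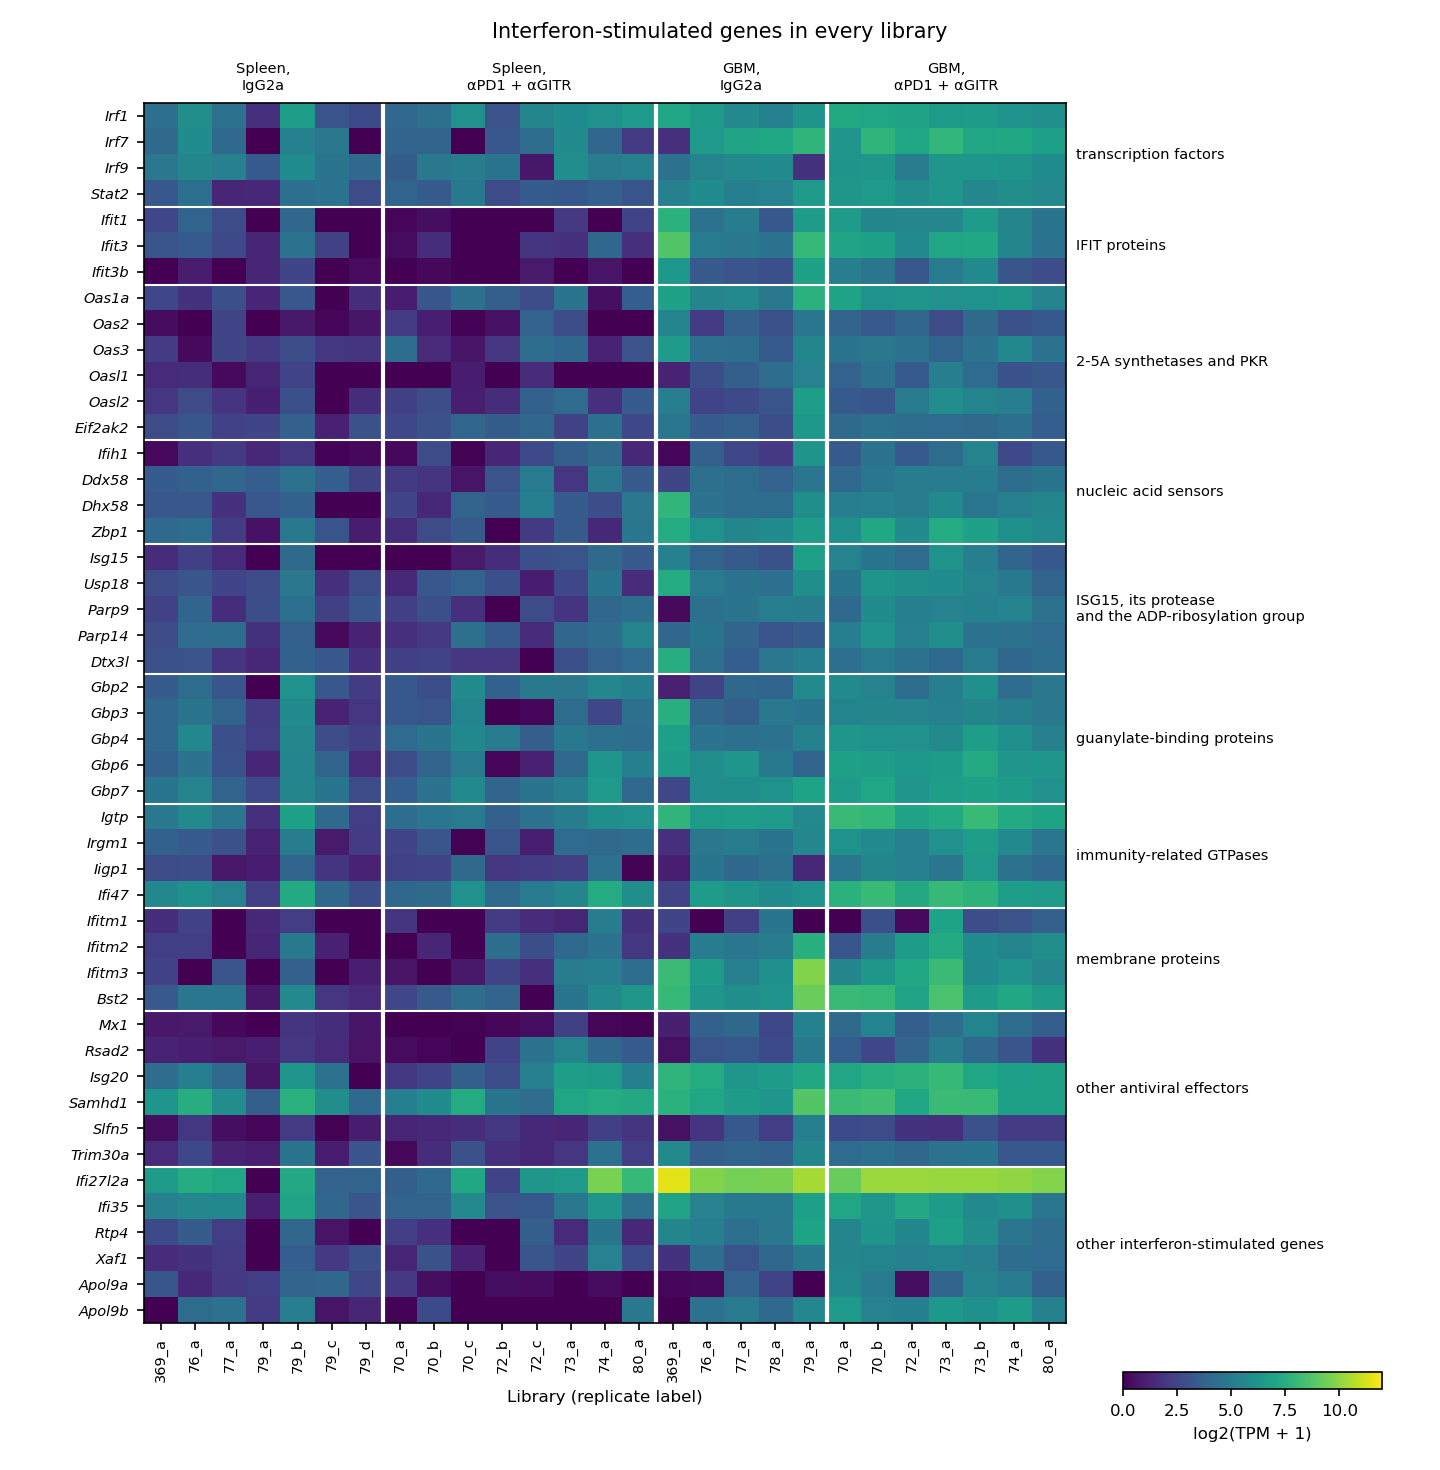
Level of each of the 47 members (rows, grouped by role) in each of the 27 libraries (columns, grouped by tissue and treatment), as log2(TPM + 1) by colour. The GBM columns are brighter than the splenic columns for most rows, and GBM IgG2a library tumor_369_a mixes the highest and the lowest values of its group.

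Samhd1 and Ifi27l2a were among the 4 highest means in every group, on the TPM scale, which corrects for transcript length. In spleens of IgG2a mice the highest means were those of Samhd1 (85.9 ± 75.0 TPM, SD, n = 7), a dNTP hydrolase that limits reverse transcription, and Ifi27l2a (82.6 ± 72.6), a mitochondrial and nuclear envelope protein used as a marker of interferon exposure. In GBM of IgG2a mice Ifi27l2a led with 1312 ± 919 TPM (SD, n = 5), followed by Ifitm3 (265 ± 336), a membrane protein that blocks viral entry, and Bst2 (218 ± 238), also called tetherin, which holds budding virions at the cell surface. In GBM of treated mice Ifi27l2a had 1017 ± 210 TPM (SD, n = 7), followed by Samhd1 (219 ± 92.8), Igtp (196 ± 71.0), Bst2 (195 ± 108) and Ifi47 (184 ± 72.8). The SDs of neighbours in these orders exceeded the differences between their means, apart from the step from Ifi27l2a to the next member in both GBM groups.

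Whole libraries differed by the same pattern. The mean log2(TPM + 1) of the 47 members ran from 1.37 to 4.42 in spleens of IgG2a mice and from 2.12 to 3.92 in spleens of treated mice. It ran from 4.54 to 5.81 in GBM of IgG2a mice and from 4.83 to 5.95 in GBM of treated mice, so that no splenic library reached the lowest GBM library. Across splenic libraries the member level was low where the T cell marker sum was low: the 2 libraries of IgG2a mice with the lowest sums, spleen_79_a (247 TPM) and spleen_79_d (258), had member means of 1.37 and 1.61, whereas spleen_79_b, with the highest sum (2535), had 4.42. The housekeeping sum was also lowest in spleen_79_a and highest in spleen_79_b among these libraries. In the 5 splenic libraries whose T cell marker sum lay within the GBM range, the member mean was 2.66 to 4.42, below the lowest GBM library, and so it was in the 7 whose housekeeping sum was at or above the lowest of GBM, which were the same libraries with B2m left out of the sum. Each tissue comparison below was also run with either set as the splenic group, alternatives chosen after seeing the data.

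**Figure D2:**
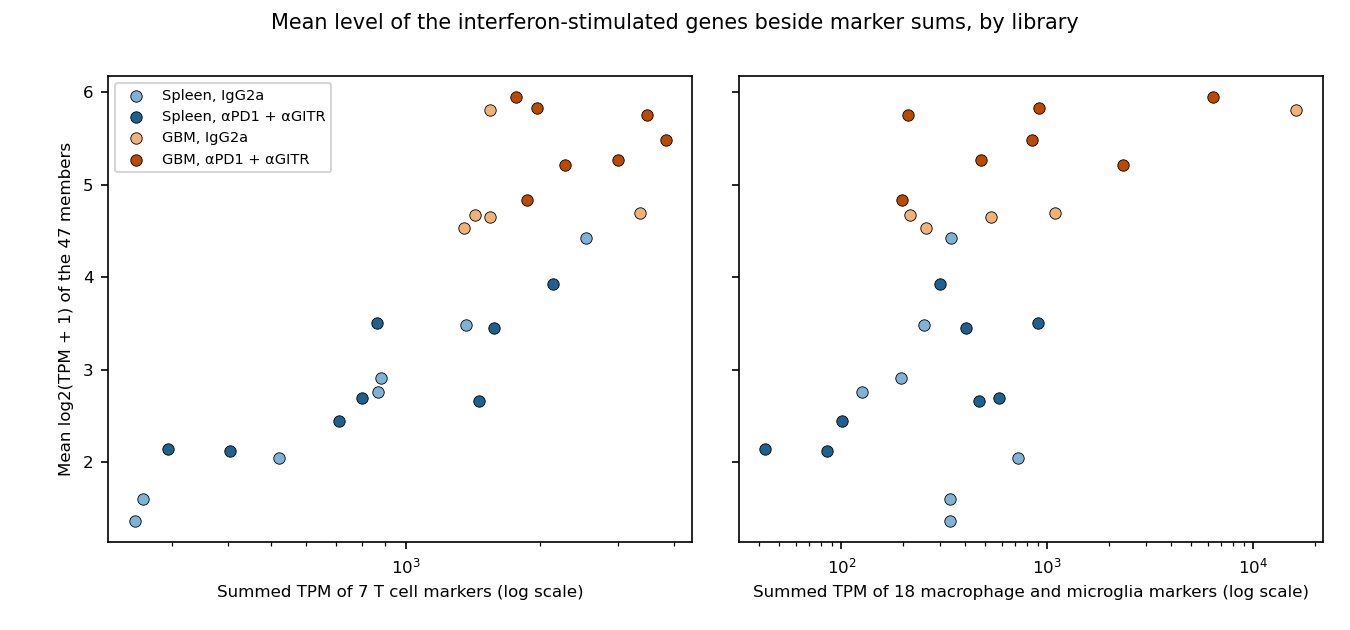
Mean log2(TPM + 1) of the 47 members (vertical axis) against the summed TPM of 7 T cell markers (left, log scale) and of 18 macrophage and microglia markers (right, log scale), with 1 point per library coloured by group. GBM libraries lie between 4.54 and 5.95 and splenic libraries between 1.37 and 4.42, and splenic libraries with more T cell marker signal have, on the whole, higher member levels.

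The first comparison asked how GBM Treg cells differed from splenic Treg cells under control IgG2a. The members Ifitm3, Ifi27l2a, Oas1a and Bst2 were higher in GBM at an adjusted p under 0.05 by limma on log2(TPM + 1). No member was lower, also at an unadjusted p under 0.05. Over all genes tested, 0.488% were called higher, against 4 of the 45 members tested. At an unadjusted p under 0.05, 26 of 45 were higher, where the share over all genes was 7.63%, and in 12 of 45 the GBM libraries lay above all splenic libraries, where that share was 1.25%. Of the 45, 26 were tested through their GBM mean alone, and for these the filter favours a difference. They include the called Ifitm3 and Oas1a, and Ifitm2, Ifit1, Ifit3, Ifit3b and Rtp4, described below. Among the 19 above 10 TPM on average in both tissues, the libraries did not overlap for 5 (0.849% of all genes so chosen), namely Zbp1, Bst2, Ifi27l2a, Stat2 and Isg20. The log2 fold change was above 0 for 44 of 45 members, with a median of 2.34, and the median over all 7380 genes tested was 0.48. Irf9, a partner of STAT2, was the exception, with -0.19.

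Ifitm3 (chr7:141009586-141010770 in GRCm38, as are the other gene positions) was at 287, 96.5, 36.6, 63.8 and 839 TPM in the 5 GBM libraries (tumor_369_a, tumor_76_a, tumor_77_a, tumor_78_a and tumor_79_a), and at 0, 1.04 and 11.6 TPM as the lowest, median and highest of the 7 splenic libraries. The groups did not overlap, and the highest GBM value was in the library of highest macrophage marker level. Ifitm3 had a splenic mean of 3.51 TPM and was tested through GBM alone. The log2 fold change was 5.70 ± 0.93 (SE, limma adjusted p = 0.0012; exact permutation p = 0.00126, two-sided, the smallest that 5 against 7 libraries can give). Bst2 (chr8:71534255-71537456) was at 264, 78.05, 61.5, 71.7 and 617 TPM in GBM and at 0.69, 9.09 and 48.9 TPM in spleen, again without overlap (log2 fold change 3.94 ± 0.91, limma adjusted p = 0.031, exact permutation p = 0.00379). Ifitm2, the third of these membrane proteins tested, differed by 3.19 ± 1.00 and was not called (limma adjusted p = 0.17).

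Ifi27l2a (chr12:103442167-103443680) was at 2891, 846, 723, 749 and 1354 TPM in GBM and at 0, 97.3 and 169 TPM in spleen. Every GBM value was above every splenic value, and the log2 fold change was 5.00 ± 0.97 (limma adjusted p = 0.0079; exact permutation p = 0.00379). Oas1a (chr5:120896256-120907521), which makes the 2-5A messenger that activates RNase L, was at 115, 43.7, 48.4, 26.7 and 199 TPM in GBM and at 0, 2.36 and 8.64 TPM in spleen (log2 fold change 4.17 ± 0.85, limma adjusted p = 0.0119; exact permutation p = 0.00126). Oas1a had a splenic mean of 3.71 TPM, so it too was tested through GBM alone. Of the 50-base stretches of Oas1a transcripts, 57.6% also occur in the neighbouring copy Oas1g, so reads of these genes could have been assigned to either.

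The next members by p had large differences that missed the adjusted threshold. They were Ifit3 (152 against 7.22 TPM, 3.73 ± 0.93, limma adjusted p = 0.0531), Ifit3b (45.1 against 1.05, 3.84 ± 0.96, 0.0531), Zbp1 (85.2 against 10.7, 3.41 ± 0.87, 0.0531), Rtp4 (49.9 against 4.96, 3.50 ± 0.91, 0.0603), Isg20 (143 against 24.3, 3.50 ± 0.93, 0.072) and Ifit1 (71.2 against 5.59, 3.52 ± 0.97, 0.0901), each with the GBM mean first, then the log2 fold change with its SE and the adjusted p. The IFIT proteins, which bind viral RNA and block its translation, had a median log2 fold change of 3.73 over 3 tested, the membrane proteins 3.94 over 3, and the 2-5A synthetases with the kinase PKR 2.69 over 6. All 3 IFIT proteins and all 6 of the last group were tested through GBM alone. The immunity-related GTPases had a median of 1.31 over 4 and the guanylate-binding proteins 1.47 over 5. Both families attack the vacuoles of intracellular pathogens and are strongly induced by IFN-gamma.

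The number of calls under IgG2a moved with the libraries used. Without tumor_369_a and tumor_79_a, the GBM IgG2a libraries of highest macrophage marker level (chosen after seeing the data), 0 of 37 members passed the adjusted threshold and 23 had an unadjusted p under 0.05 (7.08% of all genes), with a median of 2.11 against 0.59 over all genes. With the 2 splenic IgG2a libraries within the GBM range of T cell markers, 0 of 45 passed and 5 had an unadjusted p under 0.05 (2.65% of all genes), with a median of 1.12 against -0.68 over all genes. With the 3 that reached the GBM housekeeping level, 0 of 45 passed and 14 had an unadjusted p under 0.05 (4.14% of all genes), with a median of 1.53 against -0.30. Of the 19 members above 10 TPM on average in both tissues, 1 passed (0.179% of all genes so chosen), Ifi27l2a. With libraries of 1 title number averaged, 3 passed (0.352% of all genes), Ifitm3, Ifi27l2a and Oas1a. With all other libraries, the count of 4 rose to 10 without spleen_79_b, where the share of all genes called rose from 0.569% to 1.03%. That library was highest of its group in 38 of 47 members. The calls of Ifitm3, Ifi27l2a and Oas1a held when any single library was left out, that of Oas1a barely (highest limma adjusted p = 0.04997). Over all alternatives their limma adjusted p reached 0.605, 0.640 and 0.725, so these calls were lost in some. The call of Bst2 was lost without tumor_369_a (adjusted p = 0.0732), tumor_79_a (0.125) and each of spleen_369_a, spleen_79_a, spleen_79_c and spleen_79_d (0.0502 to 0.0658), with a range of 0.00993 to 0.725 over all alternatives.

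After αPD1 + αGITR treatment, the difference between GBM and splenic Treg cells covered most of the set. Of 46 members tested, 38 were higher in GBM at an adjusted p under 0.05 and 0 were lower by limma, where the share of all genes called higher was 15.8%. At an unadjusted p under 0.05, 42 were higher (34.0% of all genes) and 0 lower. In 15 members the GBM libraries lay above all splenic libraries (2.96% of all genes). Of the 46, 23 were tested through their GBM mean alone, and for these the filter favours a difference. They include Ifit1, Ifit3, Ifit3b, Apol9a, Apol9b, Mx1, Zbp1, Oasl1, Irgm1, Iigp1, Isg15 and Usp18, described below. The others were Parp9, Dtx3l, Oas2, Oas3, Oasl2, Ifih1, Ifitm1, Ifitm2, Trim30a, Xaf1 and Rtp4. Among the 23 above 10 TPM on average in both tissues, the libraries did not overlap for 7 (2.64% of all genes so chosen), namely Irf7, Bst2, Stat2, Ifitm3, Oas1a, Igtp and Isg20. All 46 log2 fold changes were above 0 (45 with TMM-type scaling factors), with a median of 2.57 against 0.95 over the 7506 genes tested. The comparison had more libraries than the one under IgG2a, 7 against 8, and a larger count of calls is not shown to be a larger difference: the test of that difference, the interaction, is given below.

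**Figure D3:**
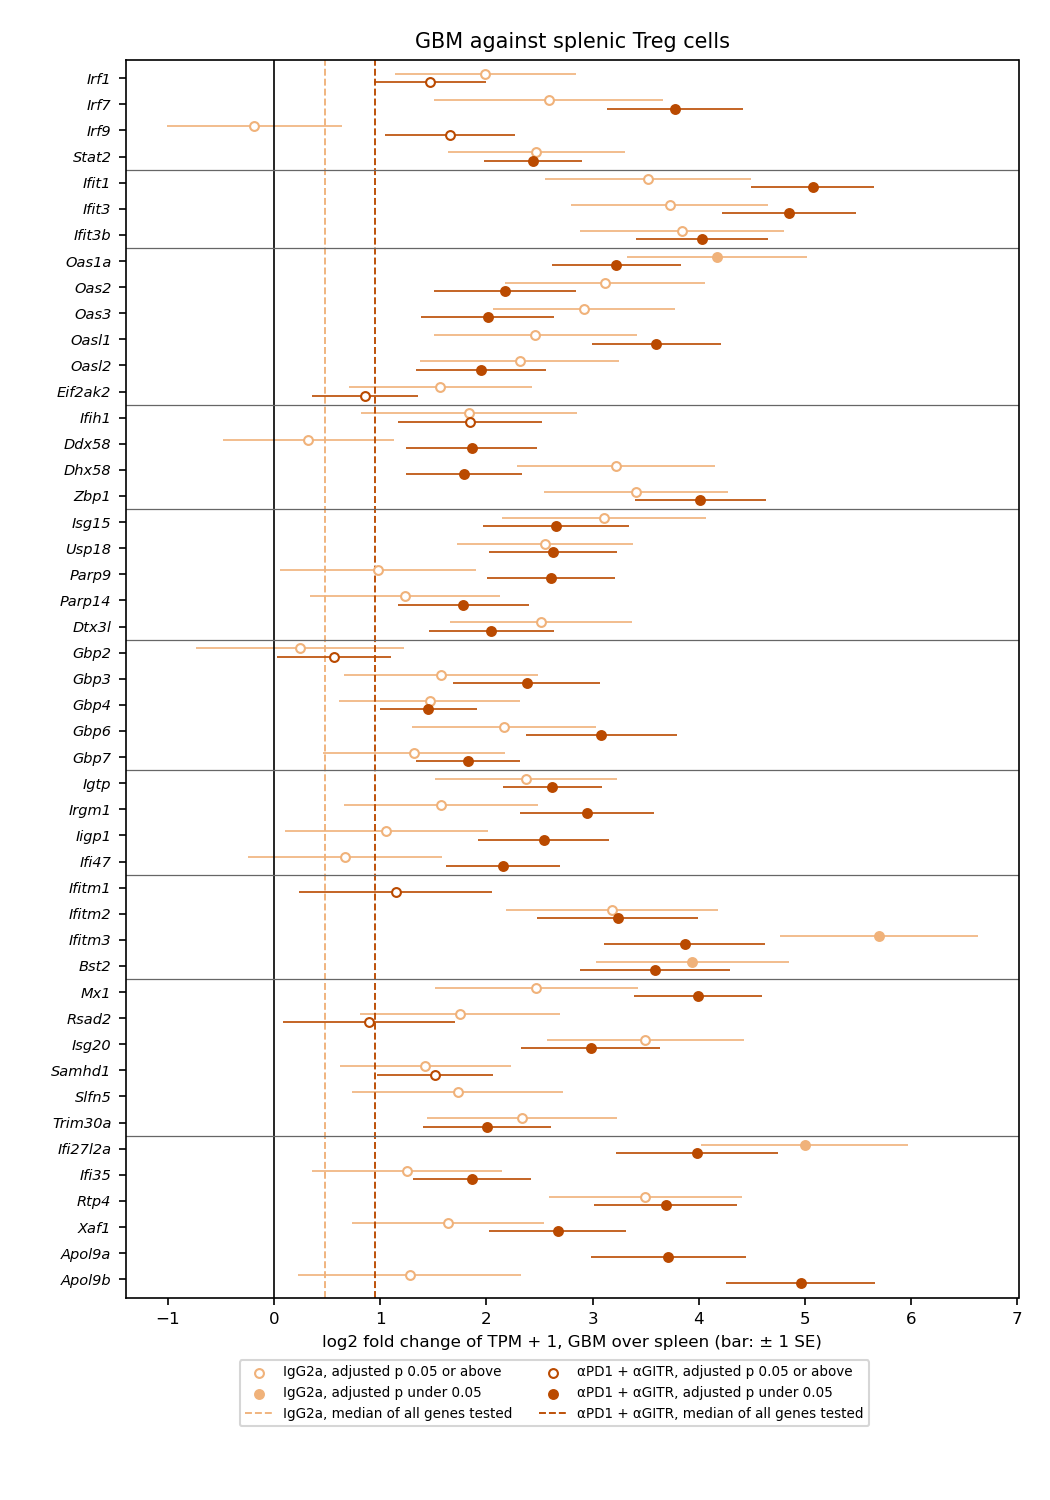
Log2 fold change of TPM + 1 in GBM over splenic Treg cells for each member tested (points, bars ± 1 SE), under IgG2a (light) and αPD1 + αGITR (dark). Filled points have an adjusted p under 0.05 (4 and 38 members), and the dashed lines at 0.48 and 0.95 mark the medians of all genes tested.

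The IFIT proteins had a median log2 fold change of 4.85 over 3 tested, and all 3 were called. They passed the limit of 10 TPM through GBM alone, with splenic means of 1.00 TPM for Ifit1, 3.16 for Ifit3 and 0.206 for Ifit3b. Ifit1 (chr19:34640871-34650009) was at 23.8, 45.8 and 98.3 TPM in GBM (lowest, median and highest of 7) and at 0, 0.06 and 4.57 TPM in spleen (of 8), with 4 splenic libraries listed at 0. The log2 fold change was 5.07 ± 0.58 (SE, limma adjusted p = 1.23e-05; exact permutation p = 0.000155, the smallest that 7 against 8 libraries can give). Ifit3 (chr19:34583531-34588731) was at 23.1, 116 and 143 TPM in GBM and at 0, 2.10 and 15.8 TPM in spleen, with 4.85 ± 0.63 (adjusted p = 6.84e-05 by limma). Its copy Ifit3b was at 6.10, 25.3 and 51.6 TPM in GBM and at 0, 0 and 0.82 TPM in spleen, with 4.03 ± 0.62 (adjusted p = 0.000301 by limma). For all 3 genes the GBM and splenic values did not overlap. Ifit3 shares 51.2% of its 50-base stretches with Ifit3b, so the division of reads between them is uncertain, while Ifit1 shares 7.13% with other genes.

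The promoters of the listed members, called or not, were examined for the interferon-stimulated response element, in the reduced form of a GAAA, any 2 bases and a second GAAA, on both strands (read as TTTC, any 2 bases and TTTC where it lies on the opposite strand). Windows from 250 bases before to 50 bases after the RefSeq start site (GRCm38.p6) were found for 38 of the 50 members, with 47 windows in all. A match was in 27 of the 47 windows (57.4%), belonging to 24 of the 38 members, and in 3.44% of the 32851 windows of all genes. The gamma-activated site in the form TTCNNNGAA, which reads alike on both strands, was in 12 of the 47 windows (25.5%) and in 8.30% of all windows. A match is a description of the sequence and not evidence that a factor bound there. The windows of Ifit1 (chr19:34640639-34640938, plus strand), Ifit3 (chr19:34583279-34583578, plus strand) and Apol9b (chr15:77728822-77729121, plus strand) are shown with the matches in capitals because these 3 had the lowest p among members whose window held the element. None of the 3 held TTCNNNGAA.
Ifit1: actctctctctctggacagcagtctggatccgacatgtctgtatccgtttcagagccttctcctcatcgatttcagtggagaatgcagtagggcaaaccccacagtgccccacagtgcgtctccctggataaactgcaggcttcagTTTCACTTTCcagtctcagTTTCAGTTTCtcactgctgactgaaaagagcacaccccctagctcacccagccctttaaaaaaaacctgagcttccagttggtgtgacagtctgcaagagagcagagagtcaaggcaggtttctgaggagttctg
Ifit3: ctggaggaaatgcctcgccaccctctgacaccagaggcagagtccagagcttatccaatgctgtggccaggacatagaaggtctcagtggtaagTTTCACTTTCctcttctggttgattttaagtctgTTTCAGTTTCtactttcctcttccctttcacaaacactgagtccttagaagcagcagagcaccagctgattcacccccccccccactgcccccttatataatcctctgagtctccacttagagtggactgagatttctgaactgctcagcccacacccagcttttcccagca
Apol9b: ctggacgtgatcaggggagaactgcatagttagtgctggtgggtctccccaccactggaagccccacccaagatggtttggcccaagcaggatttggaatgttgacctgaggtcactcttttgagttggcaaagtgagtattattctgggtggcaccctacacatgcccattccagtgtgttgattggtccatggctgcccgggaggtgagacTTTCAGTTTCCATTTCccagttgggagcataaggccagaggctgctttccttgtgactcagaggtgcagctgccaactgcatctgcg
Ifit1 and Ifit3 each held TTTCACTTTC and TTTCAGTTTC, at -104 and -85 and at -156 and -122 from the start site. In Apol9b the matches TTTCAGTTTC at -37 and TTTCCATTTC at -31 overlap, so the capitals run through both.

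Apol9a and Apol9b, apolipoprotein L relatives that restrict virus replication, were higher in GBM than in spleen, where most libraries were near 0. Apol9b (chr15:77729039-77736382) was at 35.7, 63.7 and 99.3 TPM in GBM and at 0, 0 and 26.1 TPM in spleen, without overlap and with 5 of 8 splenic libraries listed at 0, and its log2 fold change was 4.96 ± 0.70 (adjusted p = 0.000121 by limma). Apol9a (chr15:77403789-77411135) had means of 26.0 and 0.541 TPM and a log2 fold change of 3.71 ± 0.73 (adjusted p = 0.00254 by limma). Apol9b shares 52.3% of its 50-base stretches with Apol9a. The remaining members grouped as other interferon-stimulated genes were all called: Ifi27l2a with 3.99 ± 0.76 (adjusted p = 0.00214), the chaperone Rtp4 with 3.69 ± 0.67 (0.00137), the proapoptotic Xaf1 with 2.67 ± 0.65 (0.01) and Ifi35 with 1.86 ± 0.56 (0.029).

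Among the transcription factors, 2 of 4 were called. Irf7, which amplifies type I interferon production, was at 76.5, 136 and 249 TPM in GBM and at 0, 14.1 and 54.2 TPM in spleen, and the ranges did not overlap (log2 fold change 3.78 ± 0.64, limma adjusted p = 0.00078). Stat2 was also called (64.9 against 12.02 TPM, 2.44 ± 0.46, 0.00193), and its GBM values lay above all splenic values. Irf1 (1.47 ± 0.53, limma adjusted p = 0.0533) and Irf9 (1.66 ± 0.61, 0.0581) missed the threshold.

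Of the 2-5A synthetases and PKR, 5 of 6 were called. Oasl1, a catalytically inactive relative that limits Irf7 translation, was at 7.09, 12.8 and 34.0 TPM in GBM and at 0, 0 and 1.84 TPM in spleen, with 6 of 8 splenic libraries listed at 0 and a splenic mean of 0.34 TPM, so that it too was tested through GBM alone (log2 fold change 3.60 ± 0.61, limma adjusted p = 0.000749). Oas1a followed with 3.22 ± 0.61 (adjusted p = 0.00193), Oas2 with 2.18 ± 0.67 (0.0327), Oas3 with 2.01 ± 0.62 (0.0327) and Oasl2 with 1.95 ± 0.61 (0.0345). Eif2ak2, which encodes PKR, an RNA-activated kinase that halts translation, had 0.86 ± 0.50 (0.189).

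Of the nucleic acid sensors, 3 of 4 were called. Zbp1, a sensor of Z-form nucleic acid that triggers necroptosis, was at 53.4, 64.8 and 167 TPM in GBM and at 0, 4.44 and 25.1 TPM in spleen, and the ranges did not overlap (log2 fold change 4.02 ± 0.61, limma adjusted p = 0.00027). The RIG-I gene Ddx58 had 1.86 ± 0.62 (adjusted p = 0.042) and Dhx58, the LGP2 gene, 1.79 ± 0.55 (0.0321). Ifih1, the MDA5 gene, had 1.85 ± 0.68 (0.0566).

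All 5 members around ISG15 and ADP-ribosylation were called, where 15.8% of all genes were called higher. All but Parp14 had splenic means below 10 TPM and were tested through GBM alone. Isg15, a ubiquitin-like modifier, had 2.66 ± 0.68 (limma adjusted p = 0.0145) and Usp18, which removes ISG15 and dampens type I signalling, 2.62 ± 0.60 (0.00774). Parp9 and its partner Dtx3l had 2.61 ± 0.60 (0.00807) and 2.05 ± 0.59 (0.0242), and Parp14 had 1.78 ± 0.62 (0.0479), the weakest call in the set. For Isg15, 2 splenic libraries were listed at 0 and the lowest GBM value (8.93 TPM) lay within the splenic range, whose highest value was 16.8 TPM.

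Nearly all of the interferon-inducible GTPases were called. All 4 immunity-related GTPases passed: Irgm1 with 2.95 ± 0.63 (limma adjusted p = 0.00468), Igtp with 2.62 ± 0.47 (0.00125), Iigp1 with 2.54 ± 0.62 (0.0105) and Ifi47 with 2.16 ± 0.54 (0.0119). Igtp was the most abundant of them, at 196 ± 71.0 TPM (SD, n = 7) against 33.7 ± 20.1 (n = 8), and neither Igtp nor Irgm1 overlapped between tissues. Of 5 guanylate-binding proteins tested, 4 passed: Gbp6 with 3.08 ± 0.71 (0.00807), Gbp3 with 2.38 ± 0.69 (0.0262), Gbp7 with 1.83 ± 0.49 (0.0176) and Gbp4 with 1.45 ± 0.45 (0.0337). Gbp2 had 0.56 ± 0.54 (0.418), at 36.0 against 27.2 TPM. Gbp6 shares 70.7% of its 50-base stretches with other genes, chiefly Gm43302, so its level is uncertain.

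Of the membrane proteins, Ifitm3 (103 against 11.8 TPM, 3.87 ± 0.76, limma adjusted p = 0.00252), Bst2 (195 against 25.2, 3.59 ± 0.71, 0.00254) and Ifitm2 (65.1 against 8.61, 3.24 ± 0.76, 0.00821) were called, and Ifitm1 (22.2 against 5.39, 1.14 ± 0.91, 0.326) was not. Ifitm1 was uneven in GBM, from 0 to 123 TPM among the 7 treated libraries. Of the other antiviral effectors, Mx1, of the dynamin-like GTPase family, was at 11.1, 17.8 and 42.0 TPM in GBM and at 0, 0.1 and 3.80 TPM in spleen. Its splenic mean was 0.566 TPM, so that it was tested through GBM alone, and the ranges did not overlap (log2 fold change 3.99 ± 0.60, limma adjusted p = 0.000236, exact permutation p = 0.000155). The exonuclease Isg20 (2.98 ± 0.66, 0.00591) and Trim30a (2.01 ± 0.60, 0.0295) were called, whereas Samhd1 (1.52 ± 0.55, 0.0551) and Rsad2, the viperin gene (0.89 ± 0.81, 0.391), were not.

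**Figure D4:**
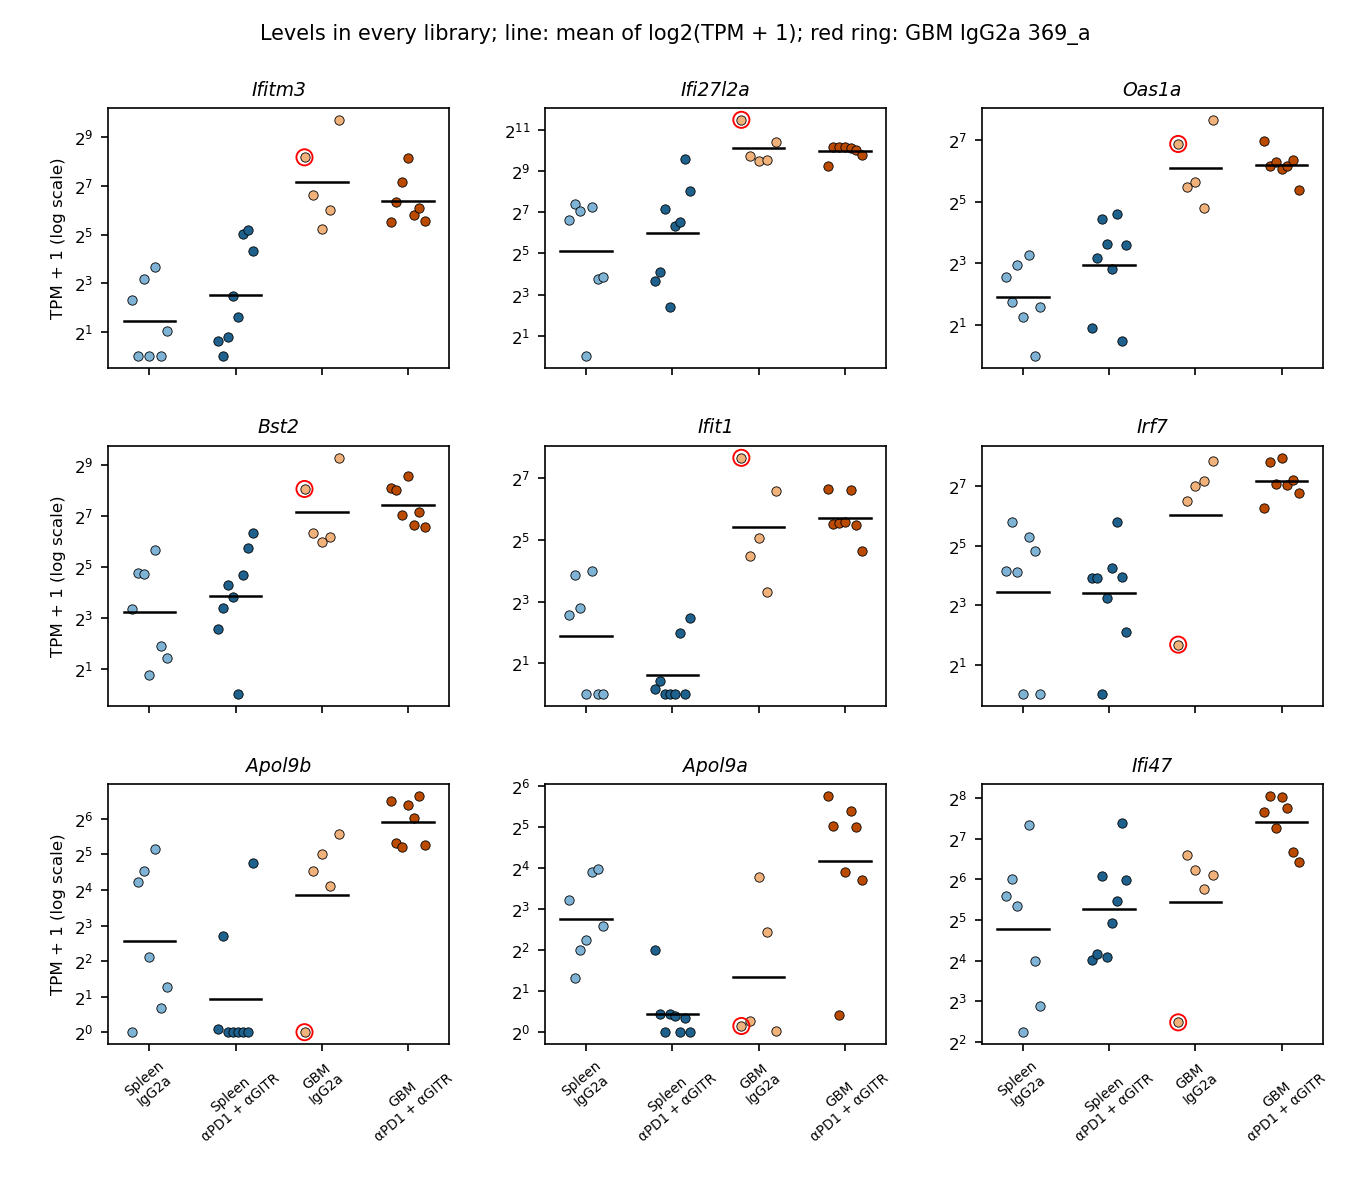
TPM + 1 on a log scale for 9 members in each library (points) of the 4 groups, with the line at the mean of log2(TPM + 1) and a red ring on GBM IgG2a library tumor_369_a. The ringed library is highest or second highest of its group for Ifitm3, Ifi27l2a, Oas1a, Bst2 and Ifit1 and lowest for Irf7, Apol9b and Ifi47.

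The difference after treatment was smaller in count when libraries were restricted. With the 3 splenic libraries within the GBM range of T cell markers, 21 of 46 members passed, where 4.92% of all genes did, and the median was 1.96 against 0.21 over all genes. The 21 included Ifit1, Ifit3, Ifit3b, Apol9a, Apol9b, Irf7, Stat2, Zbp1, Mx1, Oas1a, Ifitm3, Bst2, Igtp and Irgm1. Without the GBM libraries of highest macrophage marker level 14 of 45 passed, where 1.49% of all genes did, with a median of 2.42 against 1.08. With the 4 splenic libraries that reached the GBM housekeeping level 15 of 46 passed (3.08% of all genes; median 2.07 against 0.26). With libraries of 1 title number averaged 18 of 46 passed (3.14%; median 2.22 against 0.69). These were chosen after seeing the data. Of the 23 members above 10 TPM on average in both tissues, 15 passed (10.6% of all genes so chosen). With single libraries left out, 27 of the 38 calls held in every fit and 11 were lost in at least 1: Ddx58, Dhx58, Dtx3l, Gbp3, Gbp4, Ifi35, Oas2, Oas3, Oasl2, Parp14 and Trim30a, with adjusted p of 0.0501 to 0.101 where lost. Any of the 7 GBM libraries or of spleen_70_a, spleen_70_b, spleen_70_c, spleen_72_b and spleen_72_c lost 1 to 10 of them when left out, the most without tumor_70_b.

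The third comparison asked what αPD1 + αGITR did to the set in GBM Treg cells. No member of 47 passed the adjusted threshold by limma, nor did any of the 7848 genes tested, 1749 of which had an unadjusted p under 0.05. At an unadjusted p under 0.05, 10 members were higher and 0 lower, a share near that of all genes, of which 17.4% were higher and 4.91% lower. The log2 fold change was above 0 for 36 members, and the median was 0.49, where that of all genes was 0.62. With single libraries left out the median ran from 0.30 (without tumor_77_a) to 0.74 (without tumor_79_a), and without tumor_369_a it was 0.44, where that of all genes was 0.36. The comparison shares its treated GBM libraries with the tissue comparison after treatment and its IgG2a GBM libraries with that under IgG2a.

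Over all genes the median was 0.62, and 17.4% were higher at an unadjusted p under 0.05 by limma. The roles hold too few members to read against that share. By role, the immunity-related GTPases had a median of 1.68 (1.21 without tumor_369_a), and 3 of 4 had an unadjusted p under 0.05. The guanylate-binding proteins had 1.07 and 2 of 5. The IFIT proteins and the 2-5A synthetases with PKR had medians of 0.06 and 0.02 and 0 of 3 and 0 of 6. These medians were 0.70 and 0.17 without tumor_369_a and 0.51 and 0.49 without tumor_79_a. The 10 members were Ifi47, Apol9a, Apol9b, Iigp1, Xaf1, Gbp2, Parp14, Irgm1, Irf9 and Gbp6, and with adjusted p from 0.114 to 0.199 none was called.

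Ifi47 (chr11:49076587-49096974) was at 4.56, 95.8, 73.8, 53.6 and 68.3 TPM in the 5 IgG2a libraries, in the same order, and its lowest, median and highest values in the 7 treated libraries were 86.0, 201 and 267 TPM. Of the 7 treated libraries, 6 lay above all IgG2a libraries. The log2 fold change was 1.98 ± 0.62 (SE, limma adjusted p = 0.114, exact permutation p = 0.00379), and it was 1.24 without library tumor_369_a (adjusted p = 0.143, with a range of 0.0794 to 0.491 over all alternatives). Apol9a was at 0.11, 0.2, 12.8, 4.45 and 0.02 TPM under IgG2a and at 0.34, 31.0 and 52.8 TPM after treatment, with 5 of 7 treated libraries above all IgG2a libraries, and its log2 fold change was 2.83 ± 0.93 (limma adjusted p = 0.125, exact permutation p = 0.029). It was 1.56 without the GBM libraries of highest macrophage marker level. Apol9a had a mean of 3.51 TPM under IgG2a, so it was tested through the treated group alone, and the filter favours a difference. Apol9b was at 0, 22.2, 31.2, 16.4 and 46.4 TPM under IgG2a and at 35.7, 63.7 and 99.3 TPM after treatment, and its log2 fold change of 2.06 ± 0.76 (limma adjusted p = 0.151, exact permutation p = 0.00758) became 1.09 without library tumor_369_a.

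The other 7 had smaller changes. Iigp1 had 1.93 ± 0.72 (limma adjusted p = 0.154, exact permutation p = 0.0101), Gbp2 1.65 ± 0.70 (0.188, 0.0366), Irgm1 1.43 ± 0.63 (0.198, 0.0164), Xaf1 1.43 ± 0.60 (0.186, 0.0114), Irf9 1.42 ± 0.63 (0.198, 0.0126), Parp14 1.29 ± 0.55 (0.19, 0.0101) and Gbp6 1.14 ± 0.51 (0.199, 0.0114). Library tumor_369_a was at 2.19 TPM for Irgm1, against 23.2 to 45.6 TPM in the other IgG2a libraries, and without it the log2 fold change of Irgm1 was 0.77, that of Gbp2 1.07, that of Iigp1 1.40 and that of Xaf1 0.96. Without tumor_79_a that of Irf9 was 0.71 and that of Gbp6 0.74. Of the members lower on average, Ifitm3 had -0.77 ± 0.68 (limma adjusted p = 0.481) and Dtx3l -0.61 ± 0.61 (0.531). With between-library factors of the TMM type, which bring the median of all genes to 0.05, the median of the members was -0.19 and 3 of 47 were higher at an unadjusted p under 0.05 (6.10% of all genes), so the sign of that median depends on the scaling. Relative to the median of all genes it was -0.13 without and -0.24 with these factors.

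**Figure D5:**
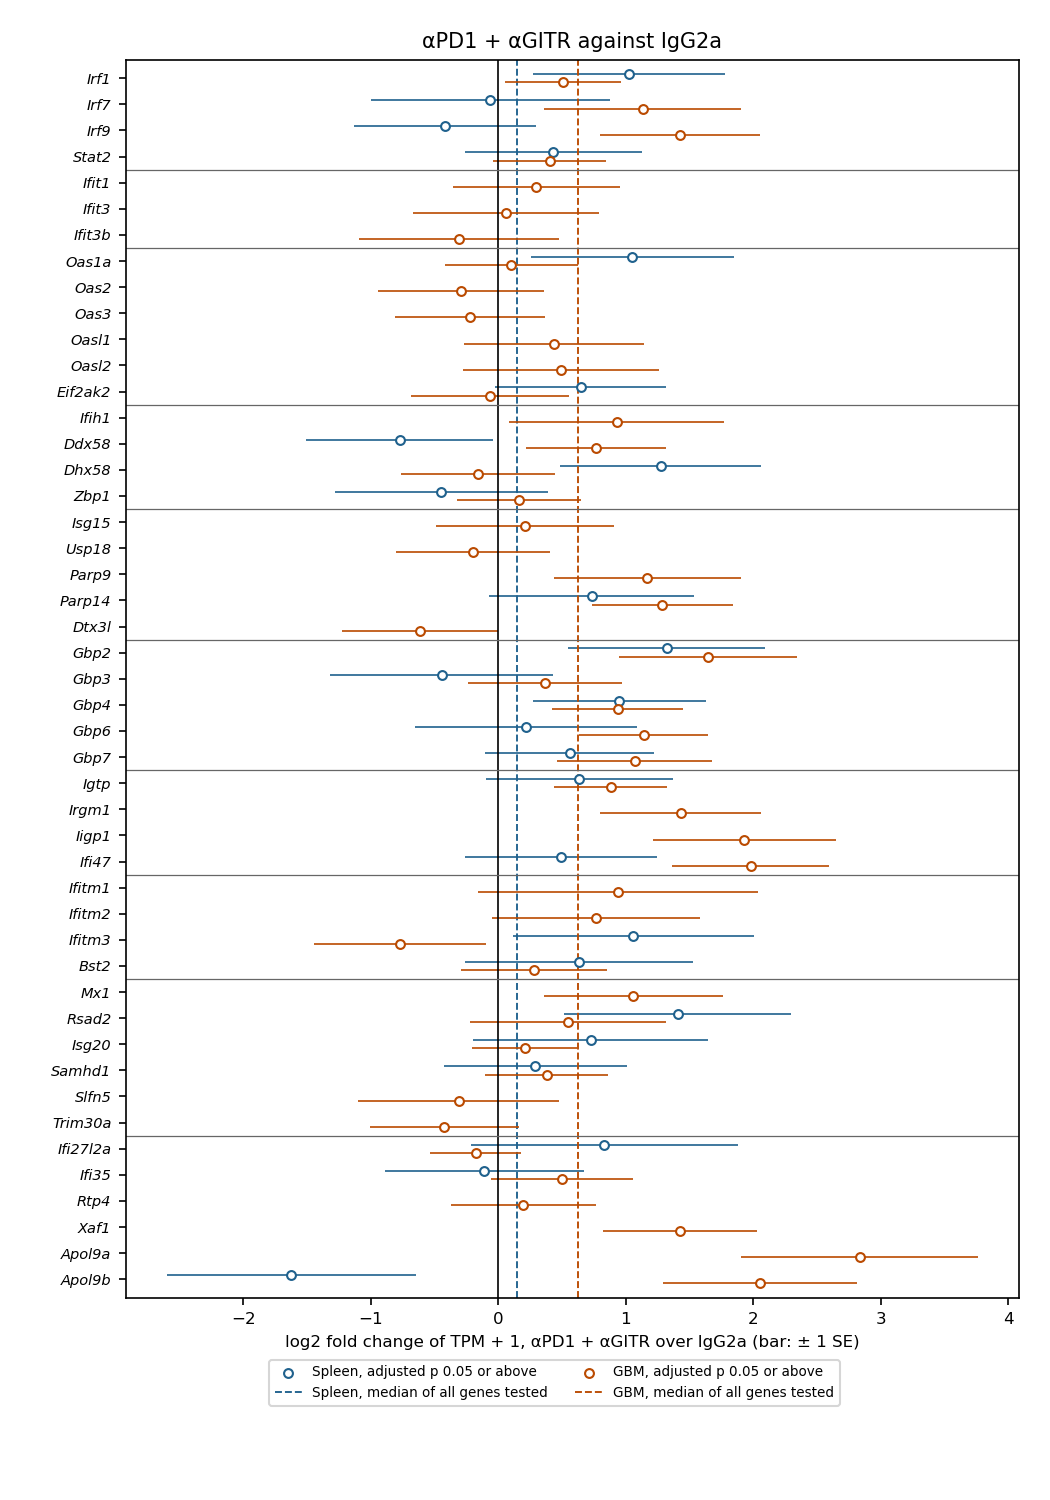
Log2 fold change of TPM + 1 after αPD1 + αGITR over IgG2a for each member tested (points, bars ± 1 SE), in splenic (blue) and GBM (orange) Treg cells. No point passed an adjusted p of 0.05, and the dashed lines at 0.15 and 0.62 mark the medians of all genes tested.

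In splenic Treg cells no change of a member after αPD1 + αGITR was detected. Of 25 tested, 0 passed the adjusted threshold by limma and 0 had an unadjusted p under 0.05, where 1.49% of all 6634 genes were higher and 1.04% lower. The median log2 fold change was 0.63 against 0.15 over all genes, and 18 members were above 0. The median was 0.16 against -0.09 without spleen_79_a and 0.92 against 0.36 without spleen_79_b. It was -0.11 against -0.20, with 12 of 26 above 0, without the 3 splenic libraries in which T cell markers summed to less than 300 TPM (chosen after seeing the data).

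Gbp2 was at 0, 8.53 and 66.4 TPM in spleens of IgG2a mice (lowest, median and highest of 7) and at 6.47, 27.1 and 55.0 TPM in those of treated mice (of 8). The ranges overlapped almost wholly, with a log2 fold change of 1.32 ± 0.77 (limma adjusted p = 1.00, exact permutation p = 0.108). Apol9b was at 0, 3.30 and 34.5 TPM and at 0, 0 and 26.1 TPM, with -1.62 ± 0.98 (exact permutation p = 0.123). Dhx58 was at 0, 8.42 and 12.1 TPM and at 1.61, 10.2 and 35.4 TPM, with 1.27 ± 0.79 (exact permutation p = 0.107). The next by limma, with exact permutation p, were Rsad2 (1.41 ± 0.89, p = 0.111), Gbp4 (0.95 ± 0.68, 0.111), Irf1 (1.02 ± 0.75, 0.2), Oas1a (1.05 ± 0.80, 0.155), Ifitm3 (1.06 ± 0.94, 0.288), Ddx58 (-0.77 ± 0.73, 0.234) and Eif2ak2 (0.65 ± 0.67, 0.142). The limma adjusted p was 1.00 for all 10. Without spleen_79_a the log2 fold change of Gbp2 was 0.79 and that of Irf1 0.62, without spleen_70_c that of Ddx58 was -0.46, and without spleen_79_c that of Eif2ak2 was 0.39. The 3 IFIT proteins were not tested here, since their means lay below 10 TPM in both splenic groups.

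The last comparison asked whether the response to αPD1 + αGITR differed between GBM and spleen. No member of 47 passed the adjusted threshold in the interaction of tissue and treatment by limma over all 4 groups, and 2 had an unadjusted p under 0.05, both with a more positive response in GBM, where 6.80% of all 8687 genes were higher and 5.35% lower. These were Apol9a (5.13 ± 1.07 on the log2 scale, limma adjusted p = 0.119) and Apol9b (3.68 ± 1.27, adjusted p = 0.314). Apol9a had means of 7.15 TPM in spleens of IgG2a mice and 0.541 TPM in spleens of treated mice, against 3.51 and 26.0 TPM in GBM. Its means moved in opposite directions, but those in spleen lay below 10 TPM and were not compared for the treatment. It passed the limit of 10 TPM through treated GBM alone, so the filter favours this difference. Without the treated library tumor_72_a, in which Apol9a was at 0.34 TPM, its interaction was 5.75 (adjusted p = 0.00854), without the IgG2a library tumor_77_a it was 5.74 (0.0367), and without the GBM libraries of highest macrophage marker level it was 3.85 (0.97), which span the range of adjusted p over all alternatives. The next by p were Irf9 (1.84 ± 0.98, limma adjusted p = 0.453), Ddx58 (1.54 ± 0.91, 0.51) and Mx1 (1.52 ± 0.91, 0.52). Without tumor_79_a the value of Irf9 was 1.13, and without tumor_369_a that of Mx1 was 0.95 and that of Ddx58 1.18.

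The rest of the interferon pathway was counted from lists of its ligands, receptors, kinases, transcription factors, inhibitors and further target genes. None of 10 interferon genes, Ifng among them, had a mean above 10 TPM in any group, so the ligands were not tested. Among 5 receptor genes tested, Ifngr1, the ligand-binding chain of the IFN-gamma receptor, was higher in GBM under IgG2a (540 against 73.7 TPM, 3.29 ± 0.76, limma adjusted p = 0.031) and after treatment (765 against 71.2 TPM, 3.62 ± 0.45, adjusted p = 4.28e-05). Ifngr2, the other chain of that receptor, had 0.32 and -0.07 and was not called. The type I receptor genes were not called: Ifnar1 had 0.28 and 1.02, and Ifnar2 1.23 and 1.69, under IgG2a and after treatment.

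After treatment, where 15.8% of all genes were called higher, limma called 1 of 3 kinases and STATs, 2 of 4 other interferon regulatory factors, 2 of 7 negative regulators and 2 of 6 adaptors. These were Stat3 (2.00, adjusted p = 0.0444), Irf5 (2.81, 0.0119) and Irf8 (1.69, 0.0345), the feedback inhibitor Socs1 (2.68, 0.0178), the SUMO ligase Pias4 (2.54, 0.0122), and the adaptors Myd88 (2.07, 0.0248) and Tmem173, the STING gene (1.70, 0.0473). Not called were Jak1 (1.42, limma adjusted p = 0.053), Tyk2, Irf2, Irf3, Ptpn1, Ptpn2, Ptpn6, Pias1, Socs3, Tbk1, Ikbke, Mavs and Ticam1, with log2 fold changes from -0.05 to 2.07. No gene of these lists was called lower. Of 36 further interferon-stimulated genes tested, 14 were called higher and 0 lower after treatment (median log2 fold change 1.61 against 0.95 over all genes). Under IgG2a 0 were called, and 14 had an unadjusted p under 0.05, where the share over all genes was 7.63% (median 1.44 against 0.48). Lgals3bp (2.85, adjusted p = 0.000735), Ifi213 (2.67, 0.00494), Gm12250 (2.07, 0.00829) and Tor3a (2.81, 0.00862) had the lowest p of the 14. For the treatment, 0 genes of any of these lists passed the adjusted threshold in GBM or in spleen by limma. In GBM, 4 of 39 further interferon-stimulated genes, 3 of 5 other interferon regulatory factors, 2 of 3 kinases and STATs, 1 of 7 negative regulators and 1 of 6 adaptors had an unadjusted p under 0.05, all higher, where 17.4% of all genes were. For the further interferon-stimulated genes this share was below that of all genes, and the other lists are too short to read against it. The lowest p among the regulatory factors was that of Irf2 (2.15, limma adjusted p = 0.0997). In spleen 0 genes of these lists had an unadjusted p under 0.05.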

How the data were processed

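Bulk Smart-Seq2 RNA-seq of sorted Treg cells was analysed in 27 of the 28 libraries described. The deposited values were TPM with 1 added by the authors, who aligned reads to mm10 with TopHat2 (per the labels) and calculated TPM with RSEM. Versions and gene annotation are not given in the sources used here. The offset of 1 was subtracted. One column has no name, and 1 splenic library of a treated mouse, spleen_72_a, has no named column. The column may hold that library, but it was not used because no name ties them. TPM is relative within a library, so an abundant feature lowers all others.

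Groups were taken from the labels. Genes whose mean exceeded 10 TPM in 1 or more groups of a fit were compared on log2(TPM + 1), a scale that understates changes of low genes, by a two-sided linear model with limma (version 3.58.1, under R 4.3.3) and a mean-variance trend in eBayes, using the groups compared only, or all 4 groups for the interaction. P-values were adjusted by Benjamini-Hochberg over all genes tested, with a threshold of 0.05. P-values of single members were also computed by an exact permutation test over libraries. The code was tested on simulated data.

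In each comparison of 2 groups the members named with their test were those past the adjusted threshold and, if fewer than 10, the next by p up to 10, and the 5 of lowest p in the interaction. Values by library were given for called members, at most 8, and for the 3 of lowest p in each treatment comparison. The members, lists and this rule were chosen with earlier results of these data known. One gene of the pathway lists is not reported here and is not in their counts. Gene positions were from GENCODE for GRCm38, and shared sequence was counted over stretches of 50 bases of the transcripts. Alternatives covered pseudocounts of 0.1 and 10, filters, scalings (TMM-type, quantile, without the 10 most abundant features), library weights, all 4 groups in a fit, a block for the number in the sample title, and each library left out. Fits without libraries of high macrophage, low T cell or low housekeeping level, and with libraries of 1 group and title number averaged, were added after seeing the data.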

Additional observations from a re-analysis of the deposited data

Results flagged for a closer look

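Of 172 groups of values examined for a library far from the others of its group, 16 held one; chance gives about 1 in 20 groups. In all, 6 were in GBM IgG2a library tumor_369_a, which was far below the other libraries for Apol9b (0 TPM against 16.4 to 46.4), Irf7 (2.18 against 89.3 to 229), Irgm1 (2.19 against 23.2 to 45.6), Parp9 (0.25 against 20.4 to 34.5), Ifi47 (4.56 against 53.6 to 95.8) and Gbp7 (4.80 against 58.8 to 125).

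Another 4 were in GBM libraries of treated mice. Ifi27l2a was at 599.5 TPM in tumor_70_a against 883 to 1171 in the others, Apol9a at 0.34 in tumor_72_a against 12.1 to 52.8, Irf9 at 32.4 in tumor_72_a against 56.1 to 79.7, and Eif2ak2 at 10.9 in tumor_80_a against 16.6 to 21.2.

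In spleens of treated mice, Ifit3 was at 15.8 TPM in spleen_74_a against 0 to 2.65, Mx1 at 3.80 in spleen_73_a against 0 to 0.35, Apol9a at 3.03 in spleen_70_a against 0 to 0.37, and Irf9 at 0.71 in spleen_72_c against 10.5 to 58.7. In spleens of IgG2a mice, Oas2 was at 4.53 TPM in spleen_77_a against 0 to 0.76, and Oas3 at 0.22 in spleen_76_a against 2.50 to 6.08.

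In the interaction of tissue and treatment, 2 of 47 members had an unadjusted p under 0.05, where 6.80% of all genes were higher: Apol9a (5.13 on the log2 scale) and Apol9b (3.68). Neither passed the adjusted threshold (limma adjusted p of 0.119 and 0.314). Apol9a passed the limit of 10 TPM through treated GBM alone. Apol9a and Apol9b share sequence, so they are not independent.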

How the results depend on the processing

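No called member changed sign under any alternative run. For GBM against spleen under IgG2a, the 4 members called, where 0.569% of all genes were called in either direction, became 1 with a pseudocount of 0.1 (0.163%), 9 with 10 (0.949%), 0 without the filter (0.0146%), 1 with the filter in every group (0.201%), 9 with quantile normalization (1.38%), 15 with library weights (3.55%), 17 with all 4 groups in the fit (1.90%), 0 without the GBM libraries of highest macrophage marker level (0.155%) and 0 with splenic libraries in the GBM range of T cell markers (0.0251%) or of housekeeping genes (0.0646%). Leaving out each library gave 3 to 10, and 10 was without spleen_79_b (1.03%). The median log2 fold change of 2.34 became 1.18 with a pseudocount of 10 and 1.12 with T cell markers in range. After treatment, the 38 called (17.5% of all genes) became 19 without the filter (0.60%), 15 with it in every group (11.4%), 22 with TMM-type factors (7.99%), 14 without the macrophage-high libraries (1.57%), 21 with T cell markers (5.29%) and 15 with housekeeping genes in range (3.37%), and 18 with libraries of 1 title number averaged (3.38%), and ran from 28 (without tumor_70_b, 7.93%) to 42 (without spleen_73_a, 30.1%). Their median of 2.57 became 1.45 with a pseudocount of 10, 1.86 with the filter in every group, 1.80 with quantile normalization, 1.79 with TMM-type factors and 1.96 with T cell markers in range.

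Treatment in GBM gave 1 call with library weights (3.35% of all genes), and its member median became -0.19 with TMM-type factors. In spleen the median became -0.11 without the libraries of lowest T cell marker level. The interaction median became -0.38 with TMM-type factors and ran from -0.16 (without spleen_79_b) to 0.52 over libraries left out, with 0 to 1 calls, the call being present without tumor_77_a or without tumor_72_a. Scaling moved the median of all genes from 0.48 to between 0.04 and 0.20 for tissue under IgG2a and from 0.95 to between 0.15 and 0.37 after treatment, whereas the members stayed 1.55 to 2.00 and 1.57 to 2.00 above it. With the filter in every group the members lay closer to all genes. Their median was then 1.57 against 0.32 under IgG2a and 1.86 against 0.95 after treatment. Beyond the restrictions and scalings named, the cause of these changes was not tested.

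The labels do not say that title numbers pair samples: over 9 pairs the deviations correlated by -0.15 to 0.16, with 1 above 0.1. With the number as a replicate block, 0 of 45 (0.0271% of all genes) and 27 of 46 members (6.59%) were called between tissues. Depth is unknown, which limits what can be said of members listed at 0.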
